A study of Mus musculus with 6 samples.

Results

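Matrix metalloproteinases (MMPs), ADAMTS proteases, ADAMTS-like proteins and tissue inhibitors of metalloproteinases (TIMPs) were examined in slow-cycling and faster-cycling chondrocytes of the mouse growth plate. The members were all rows of the deposited count table whose symbol was Mmp, Adamts, Adamtsl or Timp followed by a number (and, for the MMPs, a letter), so that the rule itself used symbols and no measured value. This gave 51 of 23159 genes, of which 23 were MMPs, 19 ADAMTS proteases, 5 ADAMTS-like proteins and 4 TIMPs. Of these, 40 passed a filter on low counts and were tested among 13728 genes.

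MMPs and ADAMTS proteases are zinc enzymes that cut proteins of the extracellular matrix, and cartilage is mostly matrix. Collagenases such as Mmp13 cleave fibrillar collagen, aggrecanases such as Adamts4 and Adamts5 cut the proteoglycan aggrecan, and Adamts2 has a building role, since it trims the N-terminal propeptide from procollagen so that fibrils can form. TIMPs bind to the active site of these enzymes and block it, ADAMTS-like proteins resemble ADAMTS proteases but lack the catalytic domain, and in the growth plate Mmp13 and Mmp9 are best known for matrix removal where hypertrophic cartilage is replaced by bone.

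The 6 libraries were made in 3 experiments, which each gave a pair: label-retaining chondrocytes (LRCs) and non-LRCs from the same animals. All mice were Col2-Q animals, homozygous for Col2a1-tTA (at Peli2), TRE-H2B-GFP (at Col1a1), Col2a1-creER and R26R-tdTomato, so that Col2a1 regulatory sequence drove both the histone label and the recombinase in LRCs and non-LRCs alike. Doxycycline, which stops synthesis of the label, was given from P21 to P49, tamoxifen was given at P46 and P47, and CD45-negative cells of several littermates were sorted at P49. LRCs were the top 10 percentile of GFP brightness (about 10000 cells) and non-LRCs had middle to low GFP (about 50000 cells). The cells came from whole dissected epiphyses of the distal femur and proximal tibia, and the sort used no marker of a cartilage zone. By the study's own description the enzyme freed the growth plate cells and left most of the articular surface in place.

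Total counts ranged from 18943789 to 129559872 per library, and LRC 2 was the smallest, with 20 of the 51 members at 0 counts. One count was worth 0.00856 to 0.0478 CPM (counts scaled to the size of the library) across libraries, so that a count of 0 allows levels of up to 0.0257 to 0.143 CPM (3 counts, for counting error only). Growth plate chondrocyte markers were abundant in both groups, with 6 genes summing to between 71930 and 206200 CPM in LRCs and between 114400 and 206900 CPM in non-LRCs. A list of 6 superficial articular or synovial markers summed to between 1459 and 3128 CPM in LRCs and between 123.6 and 195.9 CPM in non-LRCs, and 4 of the 6 were higher in LRCs by edgeR's test (Prg4, Cilp, Clu and Abi3bp). The fibroblast or perichondrial list summed to between 197.4 and 811.4 CPM in LRCs and between 158.9 and 321.8 CPM in non-LRCs. These ranges overlapped, but the sum was higher in LRCs within each experiment (811.4 against 279, 197.4 against 158.9 and 567.2 against 321.8). DESeq2 called Pdgfra, Dpt and Col3a1 higher in LRCs and Postn lower, and edgeR called none. The log2 fold changes of its 5 tested genes ran from -8.52 to 4.90, with a median of 2.10. The osteoblast list summed to between 101.4 and 169.1 CPM in LRCs and between 45.5 and 100.6 CPM in non-LRCs, with Col1a1 called higher in LRCs by edgeR and DESeq2 and Bglap and Bglap2 called lower by DESeq2 alone. Col1a1 alone gave 154, 53.0 and 113.1 of the 169.1, 101.4 and 125.9 CPM in LRCs 1 to 3. In non-LRCs it gave 33.75, 8.20 and 23.3 of 57.2, 100.6 and 45.5 CPM. The rest of the list was thus lower in LRCs in each experiment, and the median log2 fold change of the list was -0.894. The prehypertrophic or hypertrophic list summed to between 660.9 and 1876 CPM in LRCs and between 942 and 2706 CPM in non-LRCs. Although these sums overlapped, the fitted log2 fold change was below 0 for all 6 of its genes (median -1.94). Panx3 was called lower in LRCs by edgeR, and Ihh, Col10a1, Panx3 and Alpl were called lower by DESeq2. The part of these other cell types in the differences given here was not tested, and in such bulk samples fewer cells of a type and less RNA per cell cannot be told apart.

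Of the 51 members, 10 lie in 1 gene cluster on chromosome 9 between 7272514 and 7699585 (GRCm38), in the order Mmp13, Mmp12, Mmp1b, Mmp3, Mmp1a, Mmp10, Mmp8, Mmp27, Mmp20 and Mmp7. The promoters of 3 of them are shown because Mmp3, Mmp10 and Mmp13 were the most abundant genes of the cluster, and that of Adamts2 is shown because it had the largest fold change among the members called. Each line gives the 130 bases that end just before the start site (RefSeq, GRCm38.p6, plus strand), in lower case. Capitals mark the AP-1 letters TGANTCA and the RUNX letters TGTGGT or ACCACA, searched on both strands.
Mmp3, chr9:7445692-7445821: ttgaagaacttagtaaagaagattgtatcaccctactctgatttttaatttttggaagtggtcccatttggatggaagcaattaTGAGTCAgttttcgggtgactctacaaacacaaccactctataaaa
Mmp10, chr9:7502212-7502341: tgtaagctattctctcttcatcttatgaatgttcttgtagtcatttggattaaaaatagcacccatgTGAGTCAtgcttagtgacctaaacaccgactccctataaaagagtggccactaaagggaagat
Mmp13, chr9:7272384-7272513: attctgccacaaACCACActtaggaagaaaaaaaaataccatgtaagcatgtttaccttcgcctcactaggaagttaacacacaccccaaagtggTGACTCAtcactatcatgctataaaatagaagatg
Adamts2, chr11:50601955-50602084: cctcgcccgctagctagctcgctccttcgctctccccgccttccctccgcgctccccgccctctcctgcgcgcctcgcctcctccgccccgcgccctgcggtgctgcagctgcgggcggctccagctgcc

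The table held 39 promoter windows for 36 of the members. Over the 250 bases before the start, the AP-1 letters were in 8 of the 39 windows (20.5%) and in 6.75% of all 32851 windows. All 8 belonged to genes of the chromosome 9 cluster: Mmp13, Mmp12, Mmp1b, Mmp3, Mmp1a, Mmp10, Mmp20 and Mmp7. The letters started 46 bases before the start site in Mmp3, 63 before it in Mmp10 and 35 before it in Mmp13. The RUNX letters were in 6 of the 39 windows (15.4%) and in 14.0% of all windows. They started 118 bases before the start of Mmp13 and 114 before that of Mmp14, and the windows of Adamts2, Timp2 and Timp3 held neither motif.

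By edgeR's quasi-likelihood test with the experiment as a block, 3 members were higher in LRCs at a Benjamini-Hochberg adjusted p under 0.05 over all genes, and each changed at least 2-fold. They were Adamts2 (the procollagen N-propeptidase), Mmp3 (stromelysin-1, which cuts proteoglycans and can activate other pro-MMPs) and Timp2 (an inhibitor that also takes part in the activation of pro-Mmp2 by Mmp14). No member was called lower, while 12 of the 40 had an unadjusted p under 0.05, as did 18.4% of all genes tested. The same test called 0.903% of all genes tested higher in LRCs and 0.379% lower (1.28% in either direction). None of the 3 was called without experiment 1, when their adjusted p were 0.0534, 0.0702 and 0.158 by edgeR, and none without the experiment block, when they were 0.111, 0.108 and 0.234. DESeq2 with the block called 6 members higher (the same 3, Adamts4, Mmp14 and Timp3) and 3 lower (Adamts1, Adamts5 and Mmp23), where it called 6.16% of all genes higher and 6.15% lower (12.3% in either direction).

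**Figure D1:**
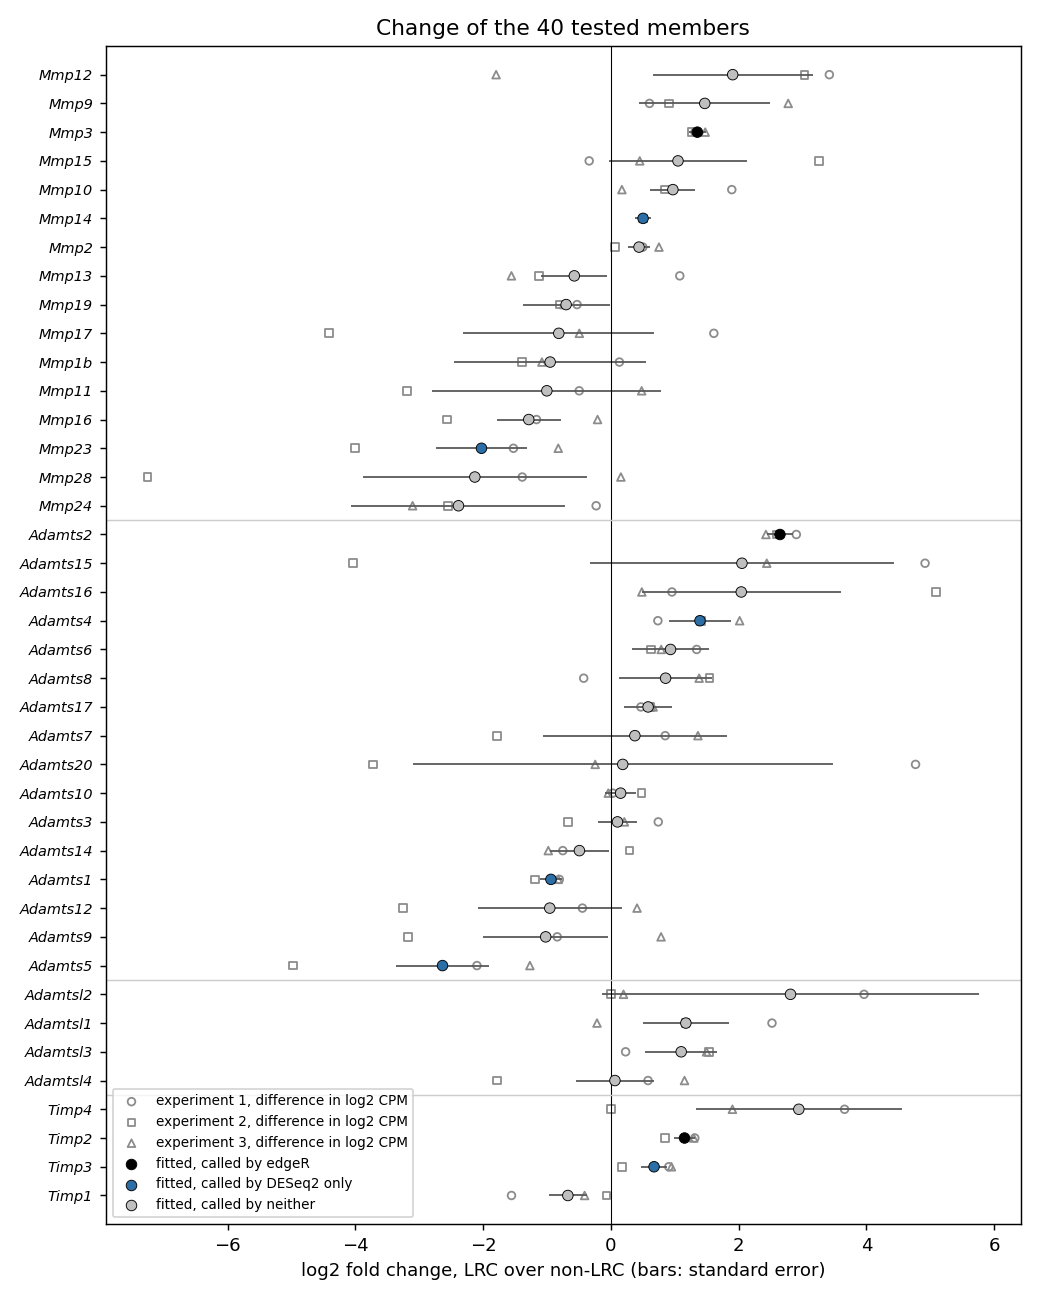
Fitted log2 fold change (LRC over non-LRC, x axis) of the 40 tested members, ordered within MMPs, ADAMTS, ADAMTS-like and TIMPs. Filled circles are edgeR estimates with their standard errors, open symbols are the 3 experiments, and colours show which tool called the member. Adamts2, Mmp3 and Timp2 are black, with all 3 experiments above 0.

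The fitted log2 fold change was above 0 for 25 of the 40 tested members and below 0 for 15, with a median of 0.41, against a median of -0.10 over all genes tested. The 3 LRC libraries were all above the 3 non-LRC libraries for 7 members (Adamts2, Adamts4, Adamtsl3, Mmp14, Mmp3, Timp2 and Timp3), where 8.41% of all genes showed this. They were all below for 3 members (Adamts5, Mmp16 and Mmp23), where 10.3% of all genes did. Each count rests on few of the 40 tested members, and no test was made of either against the background.

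Among the stromelysins, Mmp3 (ENSMUSG00000043613.8, chr9:7445822-7455975, plus strand, 10 exon blocks) was at 299.9, 336.5 and 395.5 CPM in LRCs 1 to 3 and at 120.3, 139.7 and 142.1 CPM in non-LRCs. Every LRC library was above every non-LRC library, and the spread within a group was small against the gap. The log2 fold change was 1.35 (SE 0.138, 2.56-fold; edgeR adjusted p = 0.0203), and the log2 differences in the 3 experiments were 1.32, 1.27 and 1.48.

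Mmp10 (stromelysin-2), its near neighbour in the cluster, was at 41.9, 55.6 and 21.8 CPM in LRCs and at 11.3, 30.9 and 19.4 CPM in non-LRCs. It was higher in LRCs in every experiment, but the groups overlapped and the fitted log2 fold change of 0.97 was not called (edgeR adjusted p = 0.225). Mmp10 and Mmp3 shared 140 runs of 50 bases, the read length, or 8.37% of those of Mmp10 and 7.99% of those of Mmp3. Reads from these stretches could not be placed in 1 gene, and the counting kept only reads that mapped without ambiguity. Mmp11 (stromelysin-3) stayed at or below 0.390 CPM in every library, and Mmp7 (matrilysin) had no count in any library.

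Of the gelatinases, which degrade denatured collagen, Mmp2 had the highest mean of the MMPs per length in both groups, although Mmp3 was above it in LRC 2 (186.9 against 174.4 CPM per kb). It was at 975.2, 588 and 778.2 CPM in LRCs and at 689.5, 560.2 and 461.8 CPM in non-LRCs. LRC 2 lay below non-LRC 1, so the groups overlapped, although LRCs were higher within each experiment (log2 differences 0.50, 0.07 and 0.75). The fitted value of 0.44 (SE 0.176) was not called (edgeR adjusted p = 0.263). Mmp9, the gelatinase of osteoclasts and of the vascular invasion front, was low in every library, at 1.59, 0.669 and 2.12 CPM in LRCs and at 1.04, 0.340 and 0.282 CPM in non-LRCs. Osteoclast markers were also low or at 0, with Calcr and Oscar at 0 in all LRC libraries, while Ctsk made up most of that list's sum of 105.4 to 122.2 CPM in LRCs and 107 to 165.4 CPM in non-LRCs. DESeq2 called Acp5 of that list lower in LRCs, whereas Mmp9 was higher in LRCs within each experiment, and edgeR called neither.

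The collagenase Mmp13 (ENSMUSG00000050578.10, chr9:7272514-7283331) did not move in a single direction. It was at 164.9, 83.98 and 90.37 CPM in LRCs and at 78.04, 183.7 and 265.7 CPM in non-LRCs. In experiment 1 it was higher in LRCs (log2 difference 1.08), whereas in experiments 2 and 3 it was lower (-1.13 and -1.56). The fitted log2 fold change was -0.57 (SE 0.519; edgeR adjusted p = 0.612). Hypertrophic chondrocytes express Mmp13 together with Col10a1, the collagen of the hypertrophic zone, which was at 1.93, 0.143 and 76.0 CPM in LRCs and at 12.2, 15.7 and 263.9 CPM in non-LRCs. Both genes were at their highest in non-LRC 3, but Col10a1 was lower in LRCs in every experiment, including the first, and its log2 fold change of -2.95 was not called by edgeR (adjusted p = 0.101) but was by DESeq2 (adjusted p = 0.0308). The other collagenases were rare, with Mmp1b at most at 0.694 CPM, Mmp1a at 16 counts in LRC 3 and 1 in non-LRC 3, and Mmp8 at 88 counts in LRC 3, 4 in non-LRC 3 and none elsewhere. LRC 3 also had the highest sum of neutrophil markers (10.1 CPM, against at most 2.93 in the other libraries), and the part of such cells in the Mmp8 counts was not tested.

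Mmp14, or MT1-MMP, is the membrane-bound enzyme that cleaves collagen at the cell surface and activates pro-Mmp2. It showed the most even shift of the abundant members, with 300.8, 294.3 and 258.7 CPM in LRCs and 213.2, 206.3 and 182.4 CPM in non-LRCs. The groups did not overlap, and the log2 differences were 0.50, 0.51 and 0.50. The fitted log2 fold change of 0.50 (SE 0.130, 1.42-fold) was not called by edgeR (adjusted p = 0.124) but was by DESeq2 (adjusted p = 0.00609).

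Mmp16 (MT3-MMP) went the other way, at 8.93, 2.10 and 11.96 CPM in LRCs and at 20.1, 12.6 and 13.8 CPM in non-LRCs. The groups did not overlap, yet its log2 fold change of -1.29 was called by neither tool (edgeR adjusted p = 0.253, DESeq2 adjusted p = 0.0702). Mmp15, Mmp17 and Mmp24 stayed at or below 3.54 CPM in every library. Among the remaining MMPs, Mmp23, which has an unusual domain structure without a hemopexin domain, was at 2.95, 0.669 and 5.91 CPM in LRCs and at 8.54, 11.3 and 10.5 CPM in non-LRCs. Its log2 fold change was -2.03 (SE 0.712), called lower by DESeq2 (adjusted p = 0.0215) and not by edgeR (adjusted p = 0.214). By edgeR it was -1.18 without experiment 2 and -2.73 without experiment 3, called in neither. Mmp12, the macrophage elastase, was at 11.2, 28.7 and 1.44 CPM in LRCs and at 1.02, 3.48 and 5.09 CPM in non-LRCs, so its direction differed between experiments. The macrophage markers summed to 7.23, 23.0 and 9.19 CPM in LRCs and to 8.10, 11.3 and 6.64 CPM in non-LRCs. Both were highest in LRC 2. In experiment 1 Mmp12 was higher in LRCs and the marker sum lower, and in experiment 3 the reverse held. The part of macrophages in the Mmp12 counts was not tested.

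**Figure D2:**
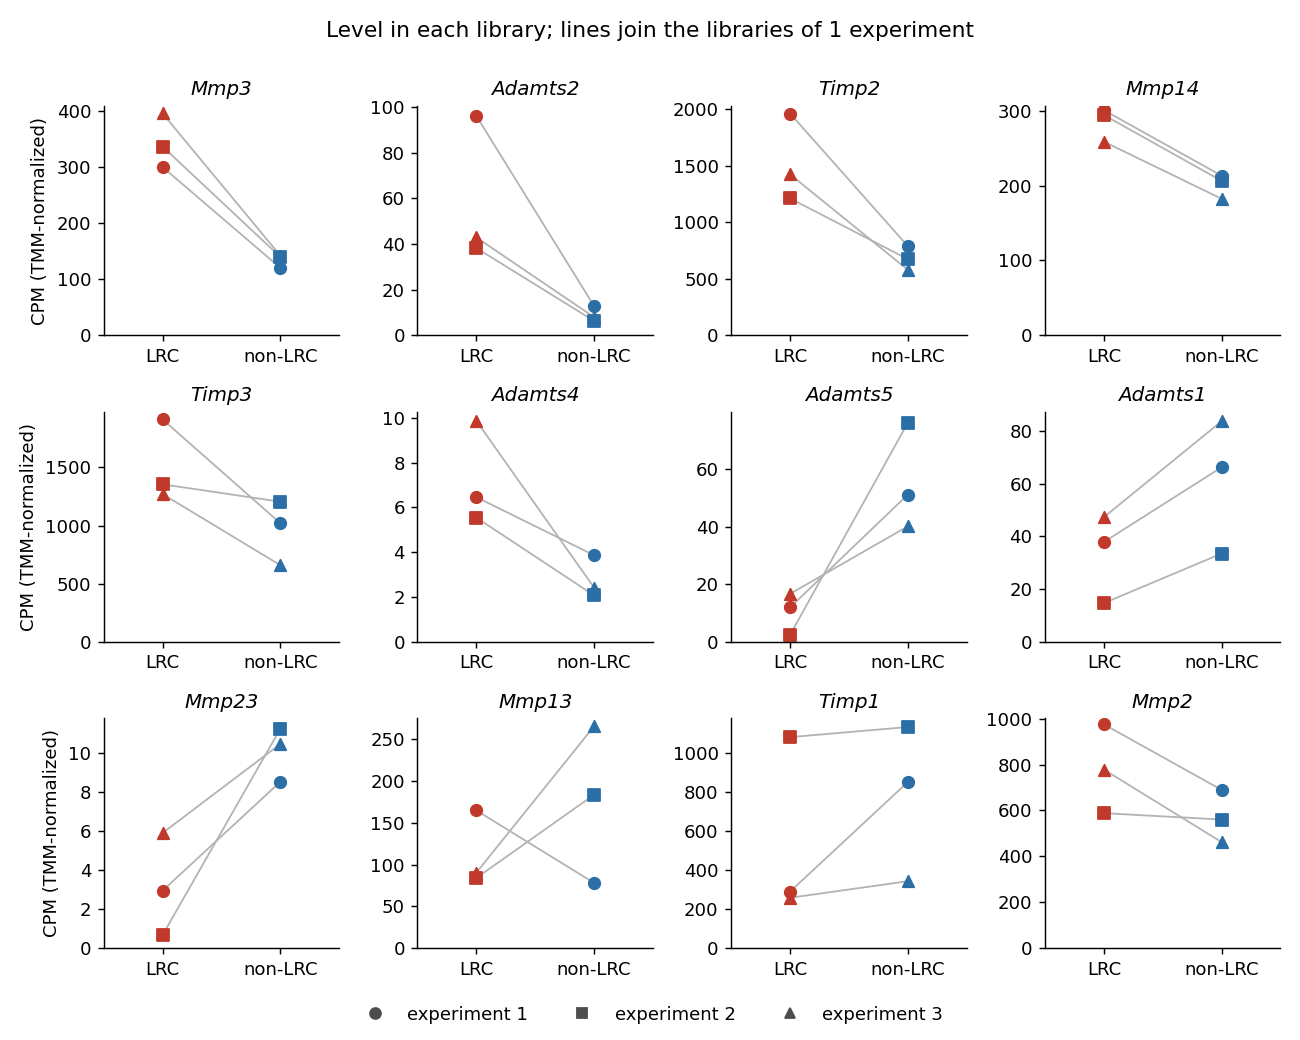
TMM-normalized CPM (y axis, from 0) of 12 members in the 3 LRC and 3 non-LRC libraries, with a grey line joining the libraries of each experiment. The lines of Mmp3, Adamts2, Timp2, Mmp14, Timp3 and Adamts4 all run down from LRC to non-LRC and those of Adamts5, Adamts1 and Mmp23 all run up, while the lines of Mmp13 cross.

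Among the ADAMTS proteases, Adamts2 (ENSMUSG00000036545.8, chr11:50602084-50807573, plus strand, 24 exon blocks) was at 96.1, 38.2 and 42.9 CPM in LRCs and at 12.8, 6.31 and 7.95 CPM in non-LRCs. The lowest LRC library was well above the highest non-LRC library. The log2 fold change was 2.65 (SE 0.206, 6.27-fold; edgeR adjusted p = 0.0151), and the experiments gave 2.90, 2.59 and 2.43. The other procollagen N-propeptidases were not called. Adamts3, which processes type II procollagen, was at 42.7, 13.9 and 25.2 CPM in LRCs and at 25.5, 22.1 and 21.8 CPM in non-LRCs, giving 0.10 on the log2 scale (edgeR adjusted p = 0.887), and Adamts14 ranged from 3.77 to 5.46 CPM in LRCs and from 3.43 to 9.23 CPM in non-LRCs (-0.49; edgeR adjusted p = 0.623). Per length, Adamts2 was at 6.33 ± 3.44 CPM per kb in LRCs and 0.967 ± 0.363 in non-LRCs (SD, n = 3). Adamts3 was at 5.02 ± 2.67 and 4.26 ± 0.383 CPM per kb (SD, n = 3), above Adamts2 in every non-LRC library on this scale. In LRCs the pair differed by less than their spread, and Adamts3 was the higher in LRC 3.

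The aggrecanases split by gene. Adamts5 (ENSMUSG00000022894.6, chr16:85856173-85901828, minus strand) was at 11.9, 2.39 and 16.6 CPM in LRCs and at 51.1, 76.1 and 40.1 CPM in non-LRCs. Every LRC library was below every non-LRC library. The log2 fold change was -2.64 (SE 0.722), which DESeq2 called lower (adjusted p = 9.13e-05) and edgeR did not (adjusted p = 0.138). The experiments gave -2.10, -4.97 and -1.27, and without experiment 2, which holds the smallest library, the value was -1.69 and was called by edgeR (adjusted p = 0.0196). Without experiment 3 it was -3.45 and also called (edgeR adjusted p = 0.00600), and without experiment 1 it was -3.04 and not called (edgeR adjusted p = 0.276).

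Adamts1, the neighbour of Adamts5 on chromosome 16 (chr16:85793827-85803113, minus strand) and also able to cut aggrecan and versican, was at 37.9, 14.7 and 47.3 CPM in LRCs and at 66.3, 33.5 and 83.8 CPM in non-LRCs. The groups overlapped because the experiments differed in level, but LRCs were lower in each experiment by a similar amount, -0.81, -1.19 and -0.82 on the log2 scale. The fitted log2 fold change of -0.94 (SE 0.176) was called lower by DESeq2 (adjusted p = 2.68e-04) and not by edgeR (adjusted p = 0.0695). Adamts4 was at 6.46, 5.54 and 9.87 CPM in LRCs and at 3.86, 2.07 and 2.42 CPM in non-LRCs, higher in all LRC libraries. Its log2 fold change of 1.40 (SE 0.483) was called higher by DESeq2 (adjusted p = 0.0454) and not by edgeR (adjusted p = 0.209). On the length-corrected scale Adamts5 exceeded Adamts4 in non-LRCs, at a mean of 5.17 against 0.578 CPM per kb, whereas in LRCs the means were 0.956 and 1.52 CPM per kb.

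Adamts9, a proteoglycanase, was at 2.12, 0.430 and 3.70 CPM in LRCs and at 3.82, 4.14 and 2.13 CPM in non-LRCs, and its direction differed between experiments. Adamts8, Adamts15 and Adamts20 stayed at or below 5.19 CPM. Adamts7 (at most 1.86 CPM) and Adamts12 (at most 2.56 CPM), which cleave cartilage oligomeric matrix protein, were low in every library, and their directions also differed between experiments. Of the remaining ADAMTS proteases, Adamts10 reached 23.6 CPM and Adamts17 10.8 CPM, and neither was called. Adamts13, the protease of von Willebrand factor, was under the filter, with 0 counts in all LRC libraries and, in non-LRCs 1 to 3, counts of 14, 17 and 23, where 0 counts allow up to 0.143 CPM in the smallest LRC library.

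The ADAMTS-like proteins were low and none was called. Adamtsl4, which binds fibrillin microfibrils, was the highest at 24.7, 2.10 and 15.03 CPM in LRCs and 16.5, 7.33 and 6.74 CPM in non-LRCs. Adamtsl3 was the only one without overlap, at 4.40 to 5.91 CPM in LRCs and 1.49 to 4.18 CPM in non-LRCs, with a log2 fold change of 1.10 (edgeR adjusted p = 0.362). Adamtsl2, in which mutations cause geleophysic dysplasia, a skeletal disorder with short stature, did not exceed 0.610 CPM in any library.

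The TIMPs were among the most abundant members. Timp2 (ENSMUSG00000017466.9, chr11:118301069-118355740, minus strand) was at 1960, 1210 and 1422 CPM in LRCs and at 788, 672.7 and 578.4 CPM in non-LRCs. The groups did not overlap, and the log2 fold change was 1.15 (SE 0.163, 2.22-fold; edgeR adjusted p = 0.0440), with 1.31, 0.85 and 1.30 in the 3 experiments. Timp3, the inhibitor that binds to the matrix itself and blocks aggrecanases, was at 1914, 1355 and 1271 CPM in LRCs and at 1020, 1205 and 658.7 CPM in non-LRCs. Its log2 fold change of 0.68 (SE 0.201) was called higher by DESeq2 (adjusted p = 0.00990) and not by edgeR (adjusted p = 0.158). Of the exonic length of Timp3, 21.3% lies opposite an exon of Syn3, and the strand setting of the counting was not given in the sources used here.

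Timp1 was the exception, at 290.1, 1083 and 258.2 CPM in LRCs and at 852.5, 1135 and 343.3 CPM in non-LRCs. Within experiments it was below its non-LRC partner 3 times, by -1.56, -0.07 and -0.41 on the log2 scale, and experiment 2 stood above the others in LRCs. The log2 fold change of -0.67 (SE 0.298) was called by neither tool (edgeR adjusted p = 0.303, DESeq2 adjusted p = 0.110). Timp4 was the lowest of the TIMPs, at 1.35, 0 and 1.44 CPM in LRCs and at 0.0774, 0 and 0.362 CPM in non-LRCs.

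To compare genes with each other, CPM was divided by exonic length. On this scale Timp1 had the highest mean of all members in both groups (612.2 CPM per kb in LRCs and 875 in non-LRCs). Its LRC mean rested on LRC 2 at 1219, since Timp2 was above Timp1 in LRC 1 (503 against 326.6) and in LRC 3 (364.9 against 290.7). By mean it was followed in LRCs by Timp2 (392.9), Mmp2 (231.5), Mmp3 (191) and Timp3 (185.8), and then by Mmp14 (47.7), Mmp13 (42.3) and Mmp10 (23.1). In non-LRCs the order was Timp2 (174.5), Mmp2 (169.2), Timp3 (118), Mmp3 (74.4), Mmp13 (65.8), Mmp14 (33.7) and Mmp10 (11.9). Neighbours such as Timp1 and Timp2 in LRCs (SD 526 and 99.2), Mmp3 and Timp3 in LRCs (SD 26.8 and 42.9) or Timp2 and Mmp2 in non-LRCs differed by less than their spread. By its mean, every ADAMTS protease was lower than these 8 genes in both groups, the highest being Adamts1 in non-LRCs at 11.5 CPM per kb. There Adamts1 and Mmp10 (SD 4.82 and 5.72) also differed by less than their spread. Adamts1 was above Mmp10 in non-LRC 1 (12.5 against 6.54) and non-LRC 3 (15.8 against 11.2) and below it in non-LRC 2 (6.32 against 17.9).

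**Figure D3:**
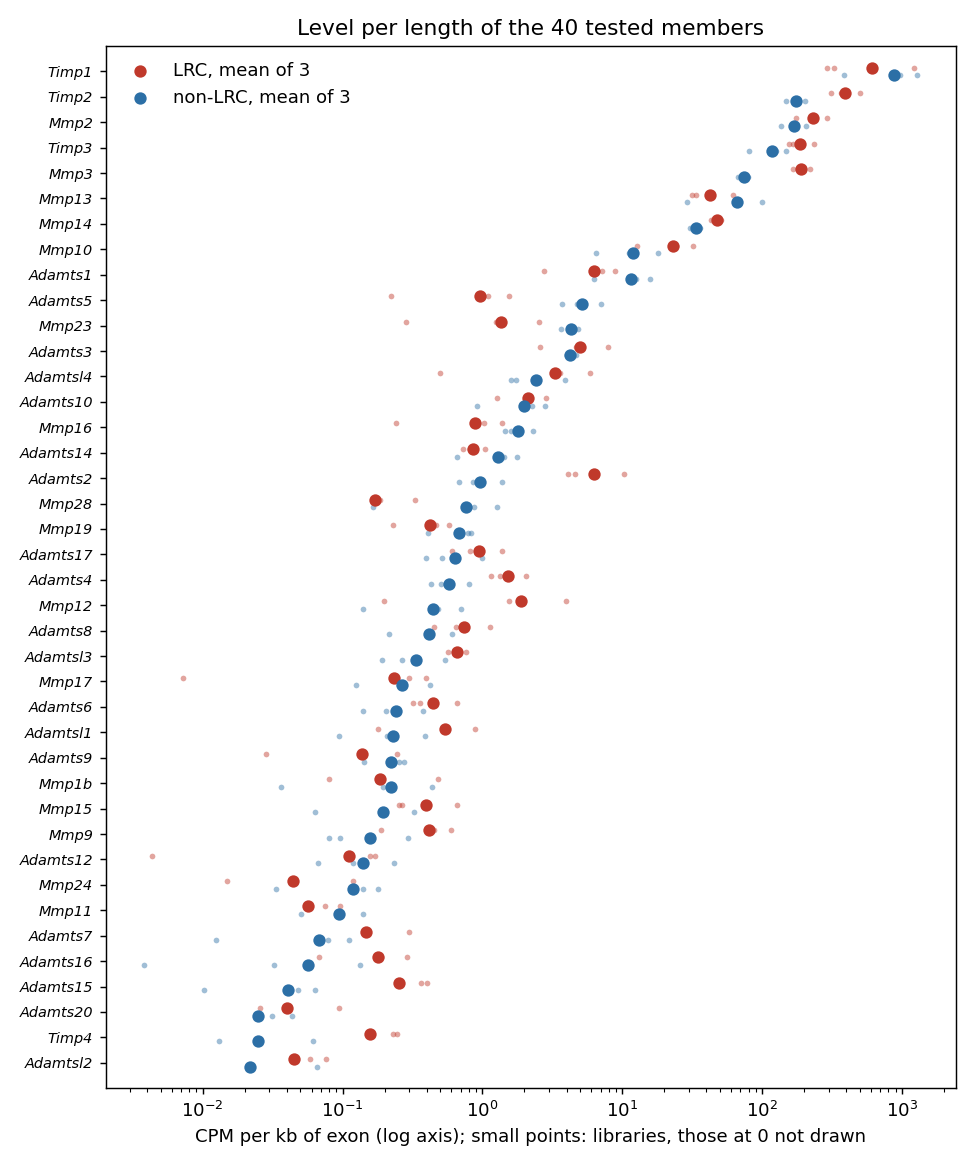
Level per length (CPM per kb of exon, log x axis) of the 40 tested members, ordered by the mean of the non-LRC libraries. Large points are means of 3 libraries and small points single libraries (those at 0 are not drawn). Timp1 has the highest mean in both groups, although Timp2 is above it in LRCs 1 and 3, and Adamts2 stands at 6.33 in LRCs and 0.967 in non-LRCs.

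Summed over all MMPs, the level was 542.1 ± 59.7 CPM per kb in LRCs and 364.1 ± 11.1 in non-LRCs (SD, n = 3), and it was higher in LRCs in all 3 experiments (log2 ratios 0.77, 0.36 and 0.58). Mmp2, Mmp3, Mmp13 and Mmp14 made up 92.1% to 96.4% of this sum in every library. The stromelysin sum was 214.2 ± 21.1 against 86.4 ± 11.5, and the membrane-type sum was 49.3 ± 3.54 against 36.04 ± 2.86. The aggrecanase and proteoglycanase ADAMTS summed to 9.92 ± 4.78 in LRCs and 18 ± 3.25 in non-LRCs and were lower in LRCs in each experiment (-0.83, -1.58 and -0.54). The procollagen N-propeptidases summed to 12.2 ± 6.19 in LRCs and 6.52 ± 1.24 in non-LRCs. No test was made on these sums.

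The TIMP sum per length was alike in mean, at 1191 ± 455.5 CPM per kb in LRCs and 1168 ± 502.4 in non-LRCs, but within each experiment Timp1 took a smaller share of it in LRCs and Timp2 a larger one. Timp1 gave 30.7%, 71.9% and 35.8% of it in LRCs 1 to 3 and 74.6%, 80.0% and 62.8% in the non-LRC libraries. Timp2 gave 47.2%, 18.3% and 44.9% in LRCs and 15.7%, 10.8% and 24.1% in non-LRCs. In experiment 2 the LRC library had a Timp1 share within the range of the non-LRC libraries. Without division by length, where the short Timp1 transcript weighs less, the TIMP sum was higher in LRCs in all 3 experiments, with a mean log2 ratio of 0.61 in place of 0.07. The ratio of TIMP to MMP sums per length was 1.78, 3.53 and 1.48 in LRCs and 3.66, 4.28 and 1.68 in non-LRCs, lower in LRCs within each experiment, with overlap between the groups. From CPM without division by length the ratio was 2.29, 2.62 and 1.87 in LRCs and 2.31, 2.60 and 1.42 in non-LRCs, nearly equal in experiments 1 and 2 and higher in LRCs in experiment 3, so the direction turned on the scale.

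**Figure D4:**
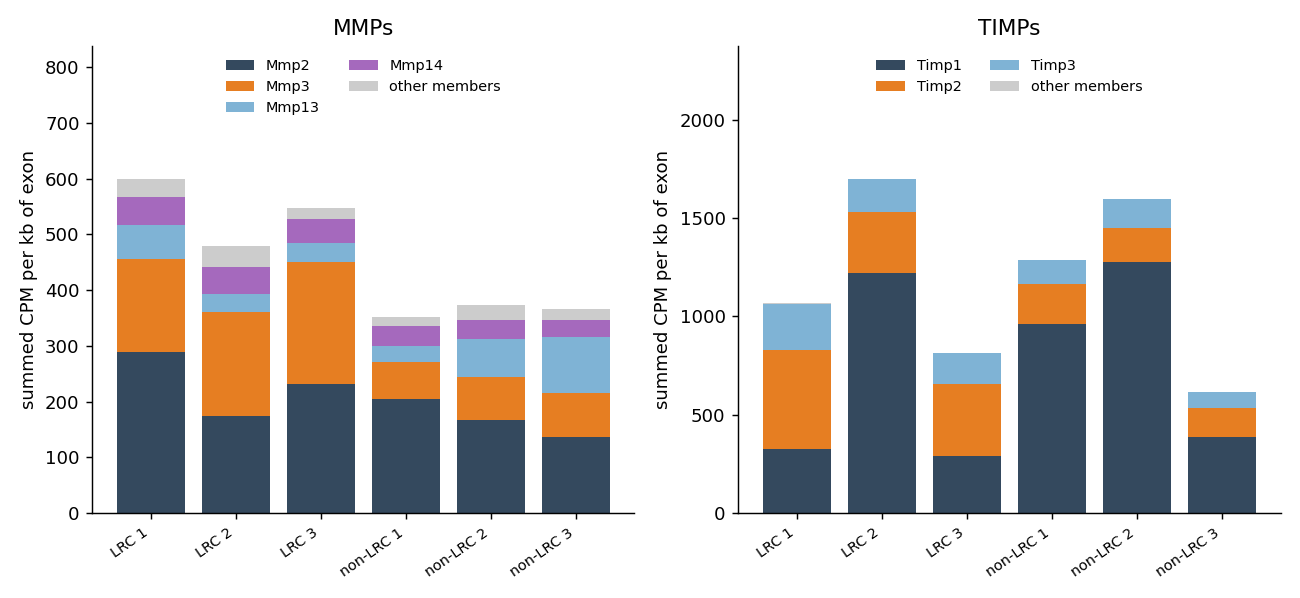
Summed CPM per kb of exon (y axis) of MMPs (left) and TIMPs (right) in each library, split by gene. The MMP bars of LRCs are taller than those of non-LRCs, and in the TIMP bars Timp1 fills 62.8% to 80.0% in non-LRCs and 30.7% to 71.9% in LRCs.

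Genes that work with these proteases were taken from 9 lists of 119 genes, of which 108 were tested. By edgeR's test 10 were higher in LRCs and 1 was lower, and the median log2 fold change was 0.29. Over all genes tested, edgeR called 0.903% higher and 0.379% lower, and the median was -0.10. DESeq2 called 40 of the listed genes higher and 9 lower, where it called 6.16% of all genes higher and 6.15% lower. Of 10 activators and cofactors, edgeR called Pcsk5, a furin-type proprotein convertase, and DESeq2 called Pcsk5, Pcsk6, Lcn2, Cd44 and Sdc1 higher and Tspan14 lower. Pcsk5 was at 83.6, 49.4 and 51.4 CPM in LRCs and at 11.6, 11.1 and 5.23 CPM in non-LRCs, with a log2 fold change of 2.77 (SE 0.278; edgeR adjusted p = 0.0199). Of 7 tested inhibitors outside the TIMP family, Spock1, a proteoglycan of the testican family, was called higher by both tools (log2 fold change 3.69, SE 0.198; edgeR adjusted p = 0.0103), at 109.6, 78.4 and 53.3 CPM against 9.11, 6.68 and 3.46. The membrane-anchored MMP inhibitor Reck, also in that list, had a log2 fold change of 0.90 that edgeR did not call (adjusted p = 0.131) and DESeq2 did (adjusted p = 0.00602), as it did Spock2 and Cst3. Tfpi2 and A2m of the same list were lower in LRCs in every experiment (log2 fold changes -1.19 and -0.75) and were called by neither tool.

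In the plasminogen system, which generates plasmin, an activator of pro-MMPs, 2 of 8 tested genes were called by edgeR and both were higher in LRCs. Plg, the gene of plasminogen itself, was under the filter, with 18 counts in LRC 3 and 0 in every other library. Plat, the tissue plasminogen activator, had a log2 fold change of 2.61 (edgeR adjusted p = 0.0311), and Serpine2, an inhibitor of serine proteases including plasminogen activators, one of 1.55 (edgeR adjusted p = 0.0177). An activator and an inhibitor of the same system were thus both higher in LRCs. DESeq2 also called Thbs1 higher. Of 10 tested tolloid and other matrix proteases, Htra1, a secreted serine protease, was called at 1.06 (edgeR adjusted p = 0.0372) and Pappa2, which cuts insulin-like growth factor binding proteins, at 3.55 (edgeR adjusted p = 0.0177). Among these proteases DESeq2 also called Tll1, Htra3 and Pappa higher and Bmp1 lower (log2 fold change -0.50, DESeq2 adjusted p = 0.0447). Of 10 tested cathepsins, Ctsf was called at 0.94 (edgeR adjusted p = 0.0497), and DESeq2 also called Ctsb, Ctsd and Ctsl higher. None of the 8 tested ADAM sheddases and none of the 3 tested clearance receptors was called by edgeR (1 and 2 had an unadjusted p under 0.05), and DESeq2 called 0 sheddases and 2 receptors, Lrp1 and Mrc2, higher.

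Of 27 substrates of cartilage matrix, 3 were higher by edgeR and 0 lower. DESeq2 called 9 higher and 5 lower (Hapln1, Matn1, Matn3, Col9a3 and Col10a1). The fitted log2 fold change was above 0 for 14 of the 27 and below 0 for 13. Col1a1, whose procollagen is a substrate of Adamts2 and which was also in the osteoblast marker list, was at 154, 53.0 and 113.1 CPM in LRCs and at 33.7, 8.20 and 23.3 CPM in non-LRCs, with a log2 fold change of 2.38 (SE 0.179; edgeR adjusted p = 0.0151). The other two, Prg4 (lubricin) and Cilp, are also superficial articular markers, and their log2 fold changes were 5.75 and 3.61 (edgeR adjusted p = 0.0175 and 0.0360). Acan, the substrate of the aggrecanases, was at 4317, 1869 and 2988 CPM in LRCs and at 6523, 2929 and 3106 CPM in non-LRCs, giving -0.43 on the log2 scale (edgeR adjusted p = 0.273). Col1a2, unlike Col1a1, was called by neither tool (log2 fold change 0.389, edgeR adjusted p = 0.3865, DESeq2 adjusted p = 0.2177). Its log2 differences in the 3 experiments were 0.522, -0.135 and 0.777.

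Of 25 regulators of Mmp13 or the aggrecanases, mostly inducers but with the repressor Hdac4 among them, 1 was called by edgeR. DESeq2 called 8 higher, Hdac4 included, and 2 lower, where it called 6.16% of all genes higher and 6.15% lower. Mef2c, a transcription factor of hypertrophic chondrocytes, was lower in LRCs, at 6.25, 5.16 and 20.5 CPM against 29.8, 33.2 and 90.8 (log2 fold change -2.35, SE 0.215; edgeR adjusted p = 0.0177). Runx2, a factor that activates Mmp13 transcription, had a log2 fold change of 0.50 (edgeR adjusted p = 0.267). Fos, a subunit of AP-1, was at 147.2, 401.5 and 524.7 CPM in LRCs and at 93.6, 97.4 and 380.5 CPM in non-LRCs. It was higher in LRCs in each experiment, with a fitted value of 1.04 that DESeq2 called (adjusted p = 0.00945) and edgeR did not (adjusted p = 0.175).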

How the data were processed

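The authors prepared cDNA with a SMART-Seq kit and libraries with Nextera XT, sequenced single-end reads of 50 bases, aligned them with TopHat2 (2.0.13) and Bowtie2 (2.2.1) to mm10, and counted non-ambiguous reads per gene with HTSeq (versions per the labels). Annotation and strand setting are not given in the sources used here. The deposited raw counts were used for every test, and all 6 columns were mapped to a sample. The authors also deposited a normalized signal (counts divided by size factors) and log2 values (rlog), which were not used here.

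Counts were fitted with edgeR 4.0.16 (R 4.3.3), with TMM scaling, filterByExpr (minimum count 10, minimum total 15), a quasi-likelihood test and the experiment as a block. Adjusted p-values (Benjamini-Hochberg) cover all genes tested. A prior count of 2 entered the log2 difference within an experiment. Alternatives were DESeq2 1.42.0 and limma-voom 3.58.1, other scaling, filters and depth, no block, and each experiment left out. The fits were tested on simulated data. Same-numbered libraries came from the same littermates, as the methods state, and their deviations from group means correlated at 0.197, 0.288 and 0.336. P-values measure the spread between 3 pools of mice. Exonic length came from GENCODE vM21. Members called by edgeR or DESeq2 and the best known in cartilage were named with every library, others by range. Members, lists and the named-gene rule were chosen with earlier results of these data known. Features of the proteins were not analysed here.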

Additional observations from a re-analysis of the deposited data

How the results depend on the processing

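Adamts2, Mmp3 and Timp2 kept their calls with DESeq2, limma-voom, DESeq2 size factors, no filter, 10 counts in every library, thinning to the smallest total, and without experiment 2 or 3. Without the replicate block, 0 members and 0 pathway genes were called (edgeR called 1 gene in all), and members at a fold of at least 2 numbered 0. Without experiment 1 no member was called, and 35 genes were called in all. Leaving out each experiment in turn gave 0 to 7 members, 0 to 5 at a fold of at least 2, and 5 to 27 pathway genes, the most of each without experiment 2 (at a fold of at least 2, also without experiment 3). Added without experiment 2 were Adamts15 and Timp3 (higher) and Adamts1 and Adamts5 (lower), and without experiment 3 Mmp12 (higher) and Adamts5 (lower). DESeq2 and limma-voom called 9 and 9 members, 6 and 6 at a fold of at least 2, and 49 and 46 pathway genes. Of the members limma-voom called, Mmp10 and Mmp12 were not called by DESeq2. Of those DESeq2 called, Adamts4 and Mmp23 were not called by limma-voom (limma-voom adjusted p = 0.102 and 0.0624). With 10 counts in every library, 27 members were tested and 5 called (Adamts1 and Adamts5 were added, both lower), and 25 pathway genes. Counts over all genes ranged from 1 without the block to 1692 of 13751 with DESeq2, against 176 of 13728 in the main fit. They were 1361 of 13728 with limma-voom and 751 of 11129 with 10 counts in every library. Without experiment 2 they were 782 of 14568, and without experiment 3 they were 223 of 14044. As CPM without division by length, mean log2 ratios of the summed levels were 0.433 for membrane-type MMPs (0.453 per length), -0.107 for other MMPs (-0.690) and 0.608 for TIMPs (0.070); the weight of each gene's length is the only difference between these scales. Leaving out each experiment in turn, the log2 fold change of Adamts3 ran from -0.23 (without experiment 1) to 0.48, and that of Adamts7 from -0.64 (without experiment 3; -0.19 without experiment 1) to 1.14; neither was called, and the cause was not tested. In LRC 2, the smallest library, 3 counts equal 0.143 CPM, a limit for counting error only. Some members at a few CPM elsewhere had 0 counts there, such as Adamts15 (4.16 and 3.75 CPM in LRCs 1 and 3). Why these counts were 0 was not tested.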
